A study of Homo sapiens with 6 samples.

Results

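The 10 genes described here are markers by which epithelial and mesenchymal cells are told apart: the keratins KRT7, KRT8, KRT10, KRT18 and KRT19, the filament protein vimentin (VIM), the cadherins CDH1 and CDH2, the adhesion protein EPCAM and the transcription factor ZEB1. They were taken by gene symbol, whatever their values, and all 10 were found among the 62443 genes of the table. The cells were HGC-27, an established human line from an undifferentiated gastric carcinoma, and RNA sequencing was used to ask which genes and pathways differ after treatment with the peptide GLUP. GLUP is a disulfide-cyclized, amidated peptide designed to link copies of the TEAD4 transcription factor, the DNA-binding partner of YAP, into condensates. The series holds 3 libraries of HGC-27 cells labelled as having no treatment (Con) and 3 libraries of HGC-27 cells treated with GLUP. Both groups were grown in the same serum-containing medium, and the study's methods name the peptide's buffer as the control solution. The labels give neither dose nor duration, and the study's methods and results state different durations. The study's methods speak of biological replicates for the RNA extraction, but the labels do not say whether the 3 libraries of a group came from separate cultures; if they did not, the p-values measure only the spread between these libraries, which may be technical.

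Keratins are the intermediate filament proteins of epithelial cells and assemble as pairs of one type I and one type II chain; KRT8 and KRT18 are the usual pair of simple epithelia, joined by KRT7 and KRT19 in many glands, whereas KRT10 belongs to the upper layers of the epidermis. Vimentin forms the corresponding filaments of mesenchymal cells and of many cultured lines. E-cadherin (CDH1) and EPCAM hold epithelial cells to each other, N-cadherin (CDH2) takes that role in neural and many mesenchymal cells, and ZEB1 represses CDH1 and other epithelial genes through E-box sequences.

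Promoter windows of 250 bases before the annotated start were available from RefSeq (GRCh38.p14) for 5 of the 10 genes, VIM, ZEB1, KRT8, KRT10 and CDH2, and 3 windows are shown because they belong to the most abundant marker, the repressor, and the one of the 5 marker keratins whose level was lower in every GLUP library than in any Con library. Capitals mark matches, on either strand, to the E-box words CAGGTG and CACCTG, the TEAD words GGAATG and CATTCC, or the word TATAAA.
VIM, chr10:17227991-17228240, plus strand: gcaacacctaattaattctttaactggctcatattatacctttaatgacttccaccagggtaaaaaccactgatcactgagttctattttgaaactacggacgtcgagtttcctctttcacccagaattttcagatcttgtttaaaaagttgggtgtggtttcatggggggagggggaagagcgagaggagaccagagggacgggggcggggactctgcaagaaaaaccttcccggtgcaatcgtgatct
ZEB1, chr10:31318966-31319215, plus strand: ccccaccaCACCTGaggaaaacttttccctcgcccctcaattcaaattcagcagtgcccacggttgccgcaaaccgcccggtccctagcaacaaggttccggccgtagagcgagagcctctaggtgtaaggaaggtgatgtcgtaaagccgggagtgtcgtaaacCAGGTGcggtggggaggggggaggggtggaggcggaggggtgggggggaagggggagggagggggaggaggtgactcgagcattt
KRT10, chr17:40822615-40822864, minus strand: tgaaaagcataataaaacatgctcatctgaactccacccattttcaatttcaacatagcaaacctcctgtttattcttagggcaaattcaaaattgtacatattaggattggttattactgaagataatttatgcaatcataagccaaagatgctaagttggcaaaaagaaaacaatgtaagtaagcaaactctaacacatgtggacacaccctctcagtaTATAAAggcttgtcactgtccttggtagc
The VIM window and the KRT8 window held none of these words. Of the 7 windows listed for ZEB1, 2 held an E-box word; the one shown was picked because it held 2 of them, which began 242 and 85 bases before the start. The TATAAA of KRT10 began 29 bases before the start. Among all 35116 windows of this length, 17.5% held an E-box word, 11.9% a TEAD word and 6.80% TATAAA, so a match is common and is a description of the letters only.

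The markers spanned a wide range of expression in these cells, with vimentin far above every other marker and both epithelial adhesion genes near the bottom. Levels are given as deposited, in FPKM (fragments scaled to gene length and to the mapped fragments of the library), a unit that sets genes of different length on one scale. Over the 6 libraries the mean level was 325 FPKM for VIM, 6.91 for ZEB1, 6.44 for KRT7, 2.60 for KRT10, 1.86 for KRT8, 1.55 for KRT18, 1.08 for KRT19, 0.0409 for EPCAM, 0.0272 for CDH1 and 0.0117 for CDH2. VIM stood at rank 297 of 20022 protein-coding genes, with 1.48% of them above it. KRT7, the leading keratin, stood at rank 2469, KRT8 at 4765, KRT18 at 5183 and KRT19 at 6022. CDH1 stood at 13210, EPCAM at 12693 and CDH2 at 14178. VIM was above ZEB1, and KRT19 above EPCAM, with no overlap between the ranges of the 6 libraries. KRT7 was above KRT10 in 6 of 6 libraries although their ranges across libraries overlapped. All other neighbours in this order had overlapping ranges and cannot be ranked beyond their spread.

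**Figure D1:**
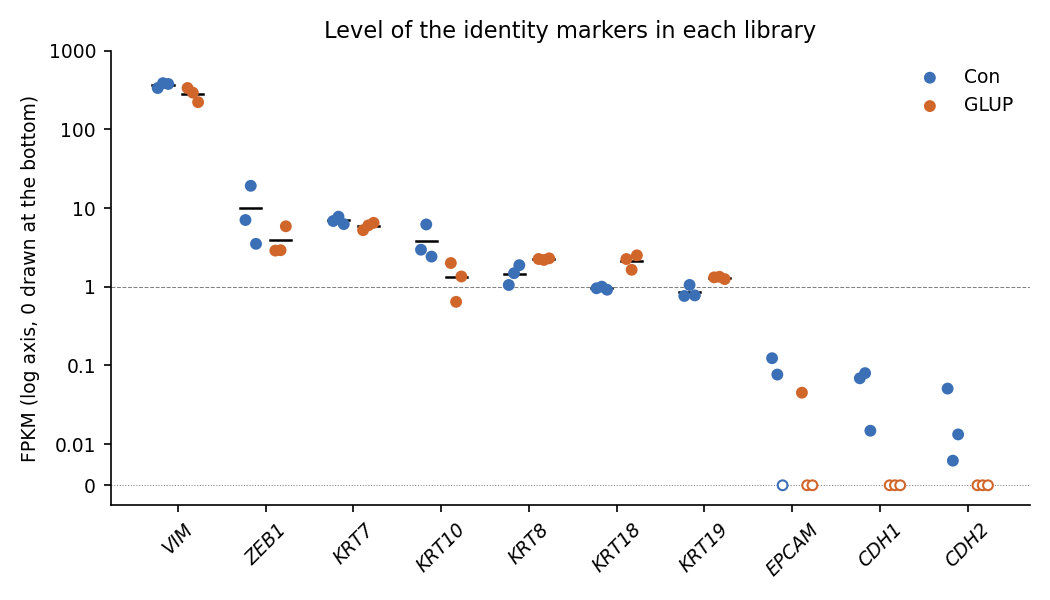
Level of each marker (vertical log axis, FPKM) in the 3 Con libraries (blue) and the 3 GLUP libraries (orange); open circles on the bottom line are libraries listed at 0, black bars are group means and are drawn only for genes above 0 in all 6 libraries, and the dashed line is 1 FPKM. VIM lies above 222 FPKM in every library, the 5 keratins between 0.644 and 7.78, and CDH1, CDH2 and EPCAM at 0.124 or less.

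Across all genes, the libraries had FPKM totals of 909735 to 965147, listed 20061 to 21498 genes above 0, and took 21.9 to 29.7% of their FPKM from mitochondrially encoded genes. Con replicate 2 stood apart, as its mean correlation with the others was 0.898 and those of the rest were 0.954 to 0.964. The number of reads per library is unknown, and no interval for counting error can be given. A test was made on log2(FPKM + 1), a scale that understates the change of low genes, for the 7406 genes that averaged 1 FPKM or more. Their median difference, GLUP minus Con, was -0.23, so the difference of each tested marker is also given relative to it. The differences followed base composition: across 7388 genes, which are not independent replicates, their Spearman correlation with the GC content of the transcript was 0.55. All samples are bulk RNA, in which fewer cells of a type and less RNA per cell cannot be told apart.

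No marker passed the test across all genes. With limma and Benjamini-Hochberg adjustment, 0 of the 7 markers tested, and 0% of all tested genes, had an adjusted p under 0.05; CDH1, CDH2 and EPCAM lay below the minimum level and were not among the 7. At an unadjusted p under 0.05, 1606 of 7406 genes were counted, 330 of them higher in GLUP (4.46%) and 1276 lower (17.2%). After scaling by the trimmed mean of log ratios (TMM) the split was 755 higher and 654 lower, and the median over all genes was -0.0081. At the same threshold 2 of the 7 markers were counted, KRT18 higher and KRT10 lower. The 3 GLUP values lay above all 3 Con values for KRT8, KRT18 and KRT19, 3 of 7, against 7.55% of all tested genes, and below them for KRT10, 1 of 7, against 22.7%. The median difference of the 7 markers was -0.20 as deposited, beside -0.23 for all tested genes, and 0.060 after TMM scaling. It was -0.41 after a smooth trend in GC content and transcript length was taken out of each library. That step is here called the correction for GC and length. After it, the GLUP values lay above all Con values for 0 of the 7 markers and below them for 1, KRT10. How many of all tested genes separated after this correction was not counted, and their median after it was not taken. The marker values after the correction therefore stand without a comparison to all genes. How many genes passed depended on single Con libraries: 1372 had an adjusted p under 0.05 when Con replicate 3 was left out and 3 when Con replicate 2 was left out, and in neither case was a marker among them.

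Of the simple epithelial keratins, KRT18 had the clearest difference between the groups. KRT18, the type I partner of KRT8 (ENSG00000111057, chromosome 12, bases 53342655 to 53346690 of GRCh37, plus strand), measured 0.957, 1.00 and 0.917 FPKM in the Con libraries and 2.25, 1.64 and 2.51 FPKM in the GLUP libraries. Every GLUP library was above every Con library, and the means were 0.959 ± 0.0434 (SD, n = 3) and 2.14 ± 0.445 FPKM (SD, n = 3). The difference on the log2(FPKM + 1) scale was 0.67 ± 0.22 (SE; 95% interval 0.18 to 1.16), 0.90 above the median of all genes, with a limma adjusted p of 0.194. The exact two-sided permutation test gave p = 0.1, the smallest that 3 against 3 libraries allow. Leaving out each library in turn kept the difference between 0.58 and 0.79. Its transcript is GC-rich, at 58.2%, and after the correction for GC and length the difference was 0.40 (limma adjusted p = 0.416) and the groups overlapped.

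KRT8, the type II partner (ENSG00000170421, chromosome 12, bases 53290971 to 53343738, minus strand), measured 1.05, 1.49 and 1.88 FPKM in Con and 2.25, 2.19 and 2.30 FPKM in GLUP. The GLUP libraries lay close together above a wider Con group. On the log2(FPKM + 1) scale the difference was 0.41 ± 0.23 (SE, 95% interval -0.11 to 0.93), or 0.64 relative to the median of all genes. The limma adjusted p was 0.300 and the exact permutation p was 0.1. Corrected for GC and length, the difference was 0.10 and the groups overlapped. KRT8 and KRT18 lie on opposite strands and their annotated exons share 525 bases. How the authors' counting treated strand is not given in the sources used here, so reads from the shared stretch cannot be assigned with certainty to either gene. Processed copies add to this uncertainty: 51 KRT8 pseudogenes summed to 0.824 to 1.61 FPKM per library and 67 KRT18 pseudogenes to 0.544 to 1.27 FPKM, values of the same order as the genes themselves. The most abundant copies were KRT8P12, at a mean of 0.379 FPKM, and KRT18P31, at 0.217 FPKM.

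KRT19, a small type I keratin of ductal and glandular cells (ENSG00000171345, chromosome 17, bases 39679869 to 39684560, minus strand), measured 0.764, 1.05 and 0.777 FPKM in Con and 1.32, 1.34 and 1.25 FPKM in GLUP. All GLUP values were above all Con values, with a difference on the log2(FPKM + 1) scale of 0.31 ± 0.20 (SE, 95% interval -0.14 to 0.75, limma adjusted p = 0.346). Relative to the median of all genes the difference was 0.54. After correction for GC and length the difference turned to -0.061 and the groups overlapped. Its 5 pseudogenes were listed at 0 in all libraries.

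KRT7, the type II keratin of many glandular epithelia and the most abundant keratin in these cells (ENSG00000135480, chromosome 12, bases 52626304 to 52645970, plus strand), measured 6.85, 7.78 and 6.26 FPKM in Con and 5.24, 6.03 and 6.50 FPKM in GLUP. The groups overlapped, since GLUP replicate 3 exceeded Con replicate 3. The difference on the log2(FPKM + 1) scale was -0.20 ± 0.26 (SE; 95% interval -0.79 to 0.38; limma adjusted p = 0.634), and it was 0.060 after TMM scaling, 0.052 after upper quartile scaling and 0.065 after quantile normalization, so no direction can be given for KRT7. The correction for GC and length moved it the other way, to -0.57 (limma adjusted p = 0.362). Relative to the median of all genes the difference was 0.03.

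KRT10 went the other way from KRT8, KRT18 and KRT19. This epidermal type I keratin (ENSG00000186395, chromosome 17, bases 38974369 to 38978866, minus strand) measured 2.96, 6.20 and 2.42 FPKM in Con and 2.00, 0.644 and 1.35 FPKM in GLUP. All GLUP values were below all Con values, although Con replicate 2 was far above the other Con libraries. The difference on the log2(FPKM + 1) scale was -1.02 ± 0.34 (SE; 95% interval -1.79 to -0.25), or -0.79 relative to the median of all genes, with a limma adjusted p of 0.198 and an exact permutation p of 0.1. Without Con replicate 2 it was -0.70, and corrected for GC and length it was -1.01 (limma adjusted p = 0.251), with the groups still apart. KRT10 was thus the one marker of 7 whose groups did not overlap both before and after the correction. The share of all tested genes that did so was not counted, so this cannot be called particular to KRT10. The antisense gene KRT10-AS1, which shares 61 exon bases with KRT10, had a mean of 3.11 FPKM and a difference of -0.08 ± 0.24 on the log2(FPKM + 1) scale (SE; limma adjusted p = 0.838).

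**Figure D2:**
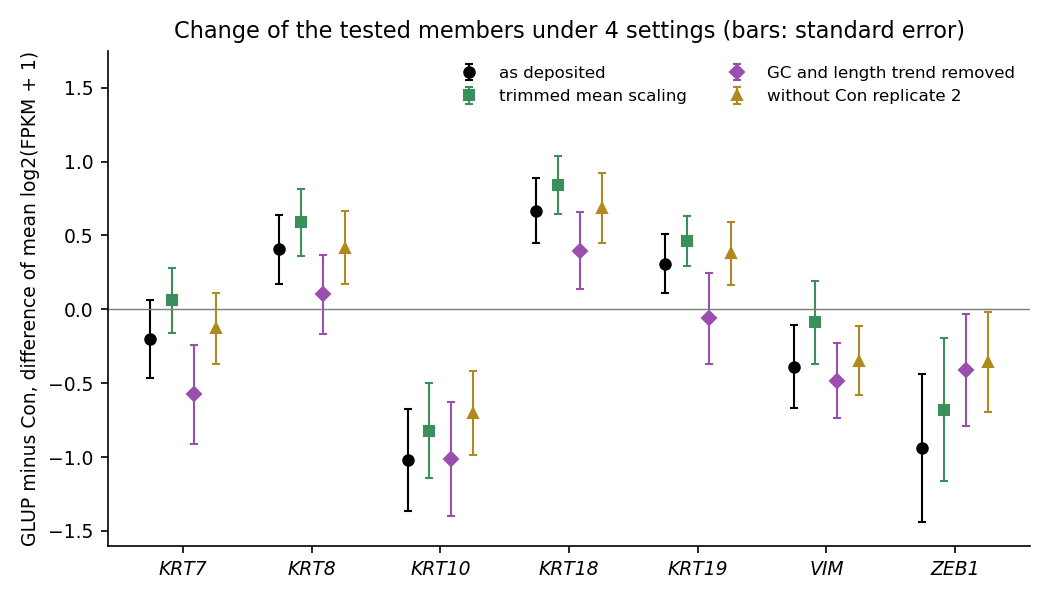
Difference between GLUP and Con (vertical axis, difference of mean log2(FPKM + 1)) for the 7 tested markers with standard errors, as deposited (black circles), after TMM scaling (green squares), corrected for GC and length (purple diamonds) and without Con replicate 2 (gold triangles). KRT18 is above 0 and KRT10 below 0 in all 4, KRT7 crosses 0 after TMM scaling (0.060), and KRT19 crosses 0 after the correction for GC and length (-0.061).

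Vimentin was abundant in every library. VIM (ENSG00000026025, chromosome 10, bases 17270240 to 17279592, plus strand) measured 336, 387 and 378 FPKM in Con and 336, 293 and 222 FPKM in GLUP. The lowest 2 values were GLUP libraries, but GLUP replicate 1 was level with Con replicate 1, so the groups overlapped. The difference on the log2(FPKM + 1) scale was -0.39 ± 0.28 (SE; 95% interval -1.01 to 0.24; limma adjusted p = 0.390), or -0.16 relative to the median of all genes. The difference was -0.22 without GLUP replicate 3 and -0.52 without GLUP replicate 1. After TMM scaling it was -0.09, and corrected for GC and length it was -0.48 (limma adjusted p = 0.331).

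ZEB1 was detected in all libraries at levels that varied most within Con. ZEB1 (ENSG00000148516, chromosome 10, bases 31607424 to 31818742, plus strand) measured 7.05, 19.2 and 3.51 FPKM in Con and 2.88, 2.92 and 5.88 FPKM in GLUP. Con replicate 2 held the highest value, and GLUP replicate 3 lay above Con replicate 3. The difference on the log2(FPKM + 1) scale was -0.94 ± 0.50 (SE; 95% interval -2.06 to 0.18; limma adjusted p = 0.279), which was -0.36 when Con replicate 2 was left out and -1.44 when Con replicate 3 was left out. Relative to the median of all genes the difference was -0.71. ZEB1 has the lowest GC content of the 10 genes, 38.9%, and its difference was -0.41 after correction for GC and length. The antisense gene ZEB1-AS1, which shares 396 exon bases with ZEB1, had a mean of 2.23 FPKM and a difference of -0.59 ± 0.28 on the log2(FPKM + 1) scale (SE; limma adjusted p = 0.250).

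**Figure D3:**
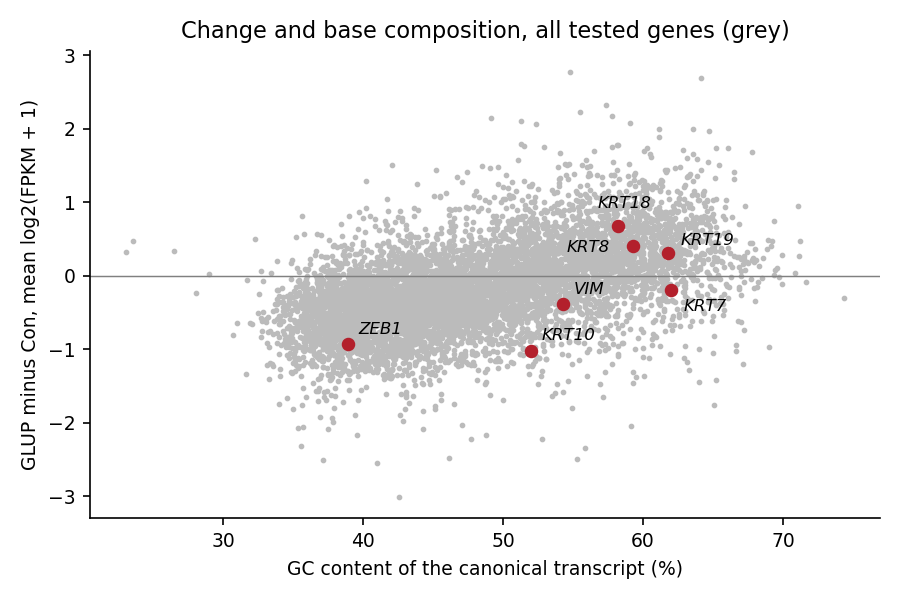
Difference between GLUP and Con (vertical axis, difference of mean log2(FPKM + 1)) against the GC content of the canonical transcript (horizontal axis, %) for all tested genes with a GC value (grey) and the 7 tested markers (red). The cloud climbs with GC content (Spearman 0.55 across 7388 genes), with ZEB1 (38.9% GC) low on the left, KRT10 (52.0% GC) near the lower edge of the cloud, and KRT7 (62.0% GC) below KRT19 (61.8% GC); the sign of KRT7 turns after TMM scaling and that of KRT19 after the correction for GC and length.

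The adhesion markers were at or near 0 in both groups. CDH1 (ENSG00000039068, chromosome 16, bases 68771195 to 68869440) was listed at 0.0687, 0.0799 and 0.0148 FPKM in Con and at 0 in all 3 GLUP libraries. CDH2 (ENSG00000170558, chromosome 18, bases 25512843 to 25757910) was listed at 0.0508, 0.00616 and 0.0133 FPKM in Con and at 0 in all 3 GLUP libraries. EPCAM (ENSG00000119888, chromosome 2, bases 47572297 to 47614740) was listed at 0.124, 0.0766 and 0 FPKM in Con and at 0.0451, 0 and 0 in GLUP. No fold change is given for them, because a value of 0 in this unit can be a failed estimate and the number of reads behind each value is unknown. For CDH1 and CDH2 every Con library was above 0 and every GLUP library at 0, while the EPCAM groups overlapped. How many other genes at such low levels have this pattern was not counted, so it cannot be called particular to these markers. In a fit without the minimum level, the unadjusted limma p was 0.0286 for CDH1, 0.133 for CDH2 and 0.183 for EPCAM. The limma adjusted p in that fit was 0.589, 0.622 and 0.622, but 0 genes passed there, against 2541 at an unadjusted p under 0.05, so these adjusted values do not show that the groups were alike. The host gene of the miR-200c and miR-141 hairpins, which in epithelial cells restrain ZEB1, was listed at 0.107 FPKM in Con replicate 2. It was at 0 in the other libraries, and the hairpins themselves were listed at 0. The study's methods do not say whether RNAs this short were captured, so these zeros do not show that the microRNAs were absent.

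Ratios between markers were taken within each library, where scaling of the library cancels; the pairs were chosen after their values were seen, so they are a description and carry no test. KRT7 over KRT18 was 7.16, 7.75 and 6.82 in Con and 2.33, 3.67 and 2.59 in GLUP. KRT7 over KRT19, a pair of nearly equal GC content, was 8.97, 7.37 and 8.06 in Con and 3.98, 4.50 and 5.19 in GLUP. Neither ratio overlapped between the groups, but KRT18 and KRT19 did not overlap by themselves either, so ratios over them add little. How often ratios of other gene pairs separate the groups was not tested. The share of KRT7 in the summed FPKM of KRT7, KRT8, KRT18 and KRT19 was 63.6 to 71.2% in Con and 47.4 to 53.8% in GLUP, whereas the sum itself, 9.62 to 12.6 FPKM over the 6 libraries, overlapped. The partners KRT8 and KRT18 stood in a ratio of 1.10 to 2.05 in Con and 0.916 to 1.33 in GLUP, which overlapped. VIM over KRT18 was 351, 386 and 412 in Con and 149, 178 and 88.5 in GLUP, without overlap, while VIM over KRT7 ranged from 34.2 to 64.1 and overlapped. VIM over the sum of KRT7, KRT8, KRT18 and KRT19 was 34.9, 34.2 and 38.5 in Con. In GLUP that ratio was 30.4, 26.2 and 17.7, without overlap, although VIM and the sum each overlapped. VIM over KRT8, VIM over KRT10 and KRT7 over KRT8 did not overlap, while VIM over ZEB1 and ZEB1 over KRT7 did. A ratio shows unequal change of its 2 genes and not which of them changed.

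**Figure D4:**
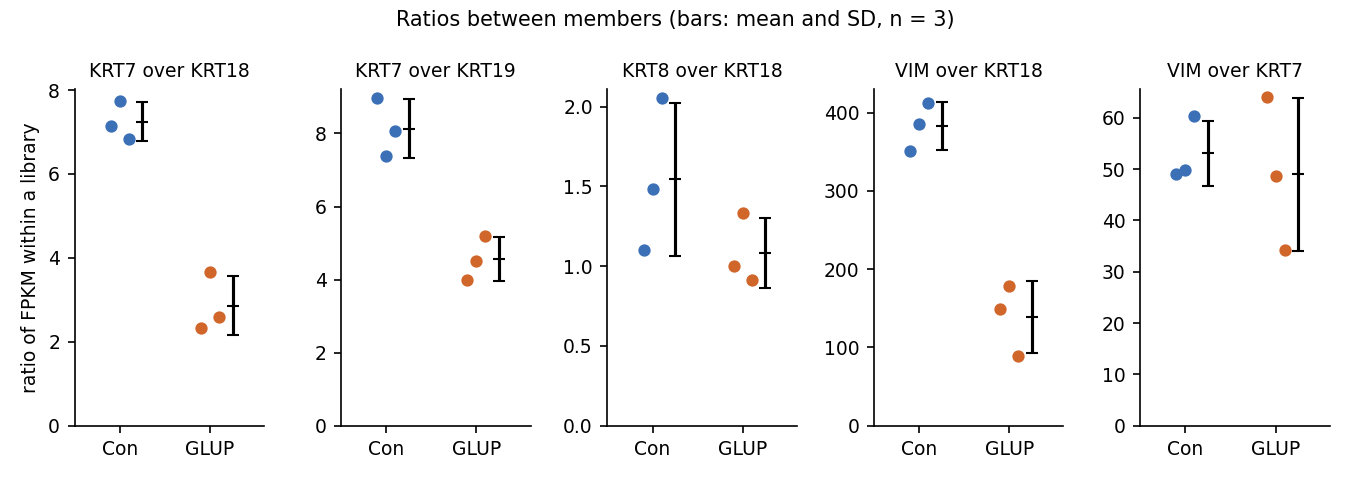
Ratio of the FPKM of 2 markers within each library (vertical axes from 0, each panel with its own scale) for Con (blue) and GLUP (orange), with bars for mean and SD (n = 3). KRT7 over KRT18, KRT7 over KRT19 and VIM over KRT18 are lower in all GLUP libraries than in any Con library, whereas KRT8 over KRT18 and VIM over KRT7 overlap.

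The rest of the keratin and cadherin families placed these markers. Of 55 protein-coding keratin genes, 32 were listed at 0 in all libraries and 6 averaged 1 FPKM or more, namely the 5 markers and KRT17, a keratin of basal and stressed epithelium, at 1.06 FPKM. KRT4, a mucosal keratin below the minimum level, measured 1.56, 1.06 and 0.977 FPKM in Con and 0.0801, 0.225 and 0.154 FPKM in GLUP without overlap, with an unadjusted limma p of 0.000776 and an adjusted p of 0.589 in the fit without the minimum. Among 23 protein-coding CDH genes, 6 were listed at 0 in all libraries and 3 reached a mean of 1 FPKM, none of them CDH1 or CDH2. CDH6, a cadherin of kidney and neural crest, had the highest mean, 6.42 FPKM, with 17.2 FPKM in Con replicate 2, and CDH8 followed at 2.89 FPKM. CDH13, a cadherin that lacks the cytoplasmic tail, measured 1.66, 4.02 and 0.912 FPKM in Con and 0.229, 0.242 and 0.147 FPKM in GLUP. Its groups did not overlap, and the difference on the log2(FPKM + 1) scale was -1.29 ± 0.32 (SE; limma adjusted p = 0.194).

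Marker lists placed the cells as a whole; VIM, CDH1, CDH2, EPCAM and ZEB1 are themselves members of these lists. Of 38 epithelial junction and polarity genes measured, 5 averaged 1 FPKM or more and 21 were below 0.1 FPKM, with a median of 0.0535 FPKM. The 5 were AP1M2, a sorting adaptor of polarized cells, at 2.05 FPKM, the protease inhibitor SPINT2 at 1.58, the desmosomal cadherin DSG2 at 1.52, the tight junction scaffold TJP1 at 1.16 and the mucin MUC1 at 1.11. Of 15 epithelial transcription and splicing factors, 1 reached 1 FPKM, KLF5, at 1.32 FPKM. By contrast 6 of 12 mesenchymal transcription factors did so, led by TWIST1 at 14.3 FPKM, with TCF4 at 7.10 and SNAI2 at 5.98 FPKM, while ZEB2 had a mean of 0.787 FPKM. Among 33 mesenchymal effector genes, 17 reached 1 FPKM and 7 reached 10 FPKM; beside VIM these were the calcium-binding protein S100A4 at 172 FPKM, smooth muscle actin ACTA2 at 99.8, the matrix proteoglycan lumican (LUM) at 64.8, caldesmon (CALD1) at 51.0, decorin (DCN) at 24.6 and the collagen COL3A1 at 17.2 FPKM.

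Lineage genes of the stomach and intestine were scarce. Of 29 such genes 0 averaged 1 FPKM and 17 were listed at 0 in all libraries; the highest was GATA6, an endodermal transcription factor, at 0.790 FPKM, and the sum over the list was 1.10 to 1.55 FPKM in Con and 1.17 to 1.56 FPKM in GLUP. The labelled type, gastric cancer cells, therefore had little trace of gastric differentiation genes in these libraries. Markers of other cell types were also low: 0 of 12 immune genes reached 1 FPKM (list sum 0.729 to 1.78 FPKM in Con and 1.65 to 1.83 FPKM in GLUP), nor did any of 6 endothelial or 7 muscle genes. Of 7 neural and glial genes, 1 reached it, the tubulin TUBB3, at 4.89 FPKM.

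**Figure D5:**
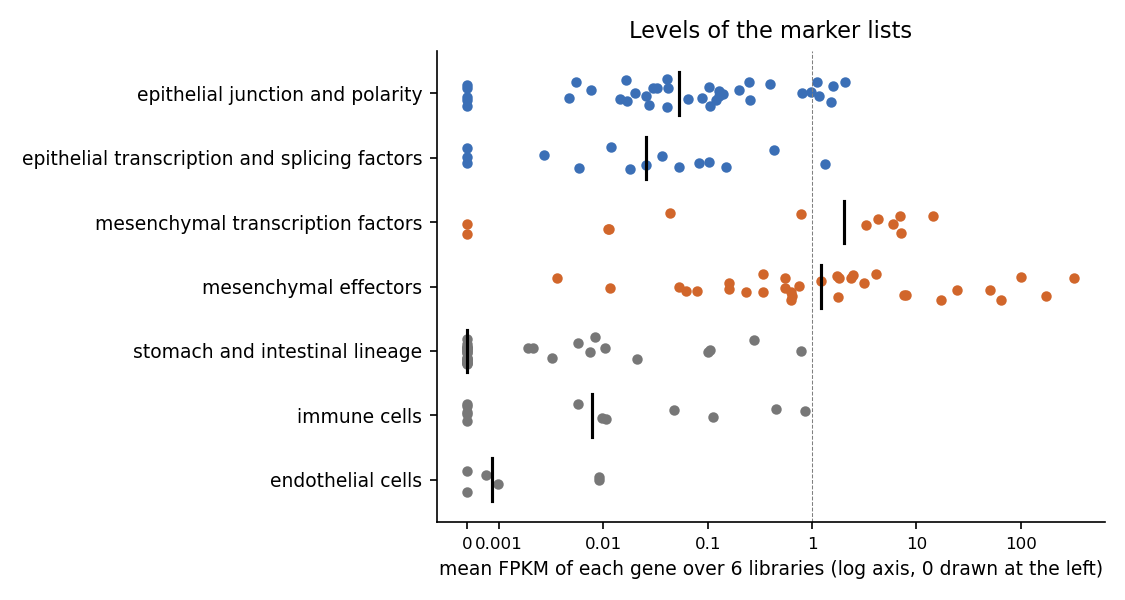
Mean FPKM over 6 libraries (horizontal log axis, 0 drawn at the left) of each gene of 7 marker lists, with a black bar at the list's median and a dashed line at 1 FPKM. The medians of the mesenchymal transcription factors (2.03 FPKM) and effectors (1.23 FPKM) lie to the right of the line, and those of the epithelial lists (0.0535 and 0.0255 FPKM) and of the stomach and intestinal list (0) far to its left.

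Between the groups, no gene of these lists passed the adjusted threshold, and the mesenchymal effectors went in both directions. At an unadjusted p under 0.05 in limma, 2 of the 17 effectors tested were higher in GLUP and 2 lower, beside 4.46% and 17.2% of all tested genes. S100A4 measured 67.1, 74.5 and 84.4 FPKM in Con and 190, 230 and 388 FPKM in GLUP, without overlap. Its difference on the log2(FPKM + 1) scale was 1.76 ± 0.33 (SE; limma adjusted p = 0.194). ACTA2 measured 91.3, 29.0 and 85.6 FPKM in Con and 141, 118 and 135 FPKM in GLUP (limma adjusted p = 0.203). Both genes were thus higher in all GLUP libraries, whereas the groups of VIM overlapped. The 2 lower effectors encode extracellular matrix proteins: periostin (POSTN) measured 10.9, 13.9 and 6.74 FPKM in Con and 5.89, 4.46 and 3.60 FPKM in GLUP, and fibronectin (FN1) measured 1.15, 3.25 and 0.993 FPKM in Con and 0.655, 0.671 and 0.644 FPKM in GLUP. Neither overlapped between the groups, with limma adjusted p of 0.194 and 0.226. The median difference of the list was 0.05 as deposited and 0.34 after TMM scaling.

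For the epithelial junction and polarity list the direction depended on the scaling. Of the 5 junction and polarity genes tested, 4 had a lower mean in GLUP as deposited and 1, MUC1, a higher one, and 0 had an unadjusted limma p under 0.05. AP1M2 measured 2.77, 2.34 and 2.27 FPKM in Con and 1.31, 1.54 and 2.07 FPKM in GLUP, without overlap (limma adjusted p = 0.312). The median difference of the 5 was -0.08 as deposited, 0.09 after TMM scaling and 0.20 after correction for GC and length. KLF5, a factor of proliferating gut epithelium, was the 1 epithelial transcription or splicing factor tested. It measured 1.39, 2.77 and 1.33 FPKM in Con and 0.503, 1.01 and 0.908 FPKM in GLUP, without overlap. The difference on the log2(FPKM + 1) scale was -0.62 ± 0.26 (SE, limma unadjusted p = 0.0381, limma adjusted p = 0.211). Of the 6 mesenchymal transcription factors tested, 0 had an unadjusted p under 0.05, with a list median of -0.14 as deposited, 0.09 after TMM scaling and 0.07 without Con replicate 2.

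For each tested marker, the gene nearest in pattern over the 6 libraries was looked up among all other tested genes. Few of those are markers, so a nearest gene outside the markers was likely beforehand. With 6 libraries, the highest of so many correlations is high whatever the genes, so the values carry no finding. By Pearson correlation of log2(FPKM + 1), a description over 6 libraries that share their groups and their base composition trend, the nearest gene was EPN2 for KRT7 (0.998), PPIAL4A for KRT8 (0.982), PPP1R2P10 for KRT10 (0.996), SEC61A1 for KRT18 (0.982), H3P6 for KRT19 (0.964), EDRF1-DT for VIM (0.975) and TMEM161B-DT for ZEB1 (0.996).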

How the data were processed

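RNA sequencing libraries from HGC-27 cells (3 Con, 3 GLUP) were analysed from the FPKM table deposited by the authors. The submitters' processing notes list HISAT2, Cufflinks and RSEM, without roles or versions, and the build GRCh38.p10, while the gene identifiers carry the suffix of an annotation lifted to GRCh37, whose coordinates are printed here. Strand setting, filters and read numbers are not given in the sources used here. Of the 62492 rows, 49 that repeat genes of the Y pseudoautosomal regions, all at 0, were summed into their partners.

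FPKM values were analysed as log2(FPKM + 1) with limma 3.58.1 (R 4.3.3; lmFit and eBayes with trend, two-sided, Benjamini-Hochberg adjustment) over genes averaging 1 FPKM or more; the step was tested on simulated data. Single values had an exact permutation test. Alternatives were other pseudocounts, minimum levels, scalings (TMM trims of 30% and 5%), a loess correction for GC and length (span 0.5), eBayes settings, a replicate block and each library left out. Figures used matplotlib 3.10.9. Named genes were the 10 markers, keratins averaging 1 FPKM or more, from each list up to 4 genes with the smallest p and the one with the highest mean, the most abundant pseudogenes and overlapping genes of the markers, and for each tested marker the gene nearest in pattern. KRT4, the other CDH genes, the miR-200c host gene, LUM, CALD1, DCN, COL3A1, SPINT2, ZEB2 and DES were named after their values were seen. Members and lists were chosen with earlier results of these data known. CD24 and PECAM1 were not matched by symbol and were not used here.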

Additional observations from a re-analysis of the deposited data

How the results depend on the processing

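No marker had an adjusted p under 0.05 in any of the 19 settings run. Genes with an adjusted p under 0.05 numbered 0 as reported, 1 with a minimum mean of 5 FPKM, 1 with eBayes without trend, 2 when corrected for GC and length, and 0 under the other pseudocounts, scalings, robust estimation and no minimum; leaving out each library gave 0 to 1372, namely 1372 without Con replicate 3, 3 without Con replicate 2 and 0 for the others. The cause was not tested. KRT7 changed sign to 0.060 with TMM scaling, 0.052 with upper quartile scaling and 0.065 with quantile normalization, and KRT19 to -0.061 when corrected for GC and length, alone or together with the replicate block. KRT8, KRT10, KRT18, VIM and ZEB1 kept their direction in all 19 settings. At an unadjusted limma p under 0.05, 2 markers were counted as reported, and 4 with TMM, upper quartile or quantile scaling. The marker count was 4 without Con replicate 3 and 1 without GLUP replicate 2 or 3. Corrected for GC and length it was 1, with or without the block. Over all tested genes the count was 1606 as reported, 1409, 1413 and 1419 with those scalings, and 3020 without Con replicate 3. It was 1328 corrected for GC and length and 1258 with the block added. A change in the marker count is therefore not by itself a result about the markers. Deviations of samples with the same replicate number were little correlated (0.13, -0.01 and -0.17). Library-wide trends with GC content enter these correlations, so they cannot show whether such samples were handled together. With the replicate block 1 gene had an adjusted p under 0.05, and with the block and the GC correction 1. With the block alone 2 markers had an unadjusted limma p under 0.05, beside 1513 genes over all tested. CDH1, CDH2 and EPCAM could not be given a GC correction at their levels. Unknown read numbers limit what can be said of genes near 0.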

Other observations

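Other parts of the cell's filament and junction systems gave values that belong to no comparison above. Among the nuclear lamins, LMNA had a mean of 17.9 FPKM, with overlapping groups. LMNB2 measured 4.06, 1.07 and 4.57 FPKM in Con and 6.99, 6.21 and 5.01 FPKM in GLUP. Con replicate 2 was the lowest library for LMNA (7.60 FPKM) and for LMNB2. LMNB2 was higher in all GLUP libraries, with a difference of 0.86 ± 0.38 on the log2(FPKM + 1) scale (SE, limma adjusted p = 0.231). LMNB1 went the other way, with means of 0.839 FPKM in Con and 0.509 FPKM in GLUP, and its groups overlapped. Of 13 genes of the catenin and adherens junction list, which links cadherins to actin, 3 averaged 1 FPKM or more and 5 were below 0.1 FPKM. The 3 were CTNNA1 at 8.44 FPKM, VCL at 2.27 FPKM and CTNNB1 at 2.25 FPKM, while JUP had a mean of 0.0301 FPKM. CTNNA1 measured 13.7, 7.57 and 8.55 FPKM in Con and 7.24, 6.85 and 6.76 FPKM in GLUP (limma adjusted p = 0.383). Its GLUP values lay below all Con values, as for 22.7% of all tested genes, and the groups of VCL overlapped. Below the minimum level, NECTIN1 and JUP were higher in all GLUP libraries than in any Con library. CTNNB1 ranged from 0.353 FPKM in GLUP replicate 3 to 7.71 FPKM in Con replicate 2, and the groups overlapped. Desmin (DES), the filament protein of muscle, was listed at 0 in all 3 Con libraries and at 0.124, 0.0756 and 0 FPKM in GLUP.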
